A study of Rattus norvegicus with 36 samples.

Results

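Removal of the superior cervical ganglia (SCGX) was compared with sham surgery (Sham) in rat pineal glands taken at midnight. The comparison held 6 of the 36 libraries of the study, namely the 3 SCGX night and the 3 Sham night libraries, chosen by their labels. All were from Sprague-Dawley rats operated on postnatal day 5 and killed at 40 days of age at ZT19, in the dark phase of a light/dark cycle, with ZT7 as the mid-day time point of the day groups. In SCGX rats both ganglia were taken out, while in Sham rats the neck was opened and the ganglia were only exposed. The groups used beside them were Control (no surgery) and DCN (decentralization, in which the ganglia stayed in place but were cut off from their central input), each with 3 night and 3 day libraries, the Sham day and SCGX day libraries, and 9 libraries of glands in organ culture that were untreated or treated with norepinephrine (NE) or dibutyryl cyclic AMP (DBcAMP). The rats of the other in vivo groups were also 40 days old, and those of the DCN, Sham day and SCGX day groups were also operated on postnatal day 5. Each in vivo library was a pool of glands from several rats, so a replicate is a pool and the spread between replicates is a spread between pools. The deposited values were read-pair counts per gene, and the 6 libraries held between 12985072 and 18504240 read-pairs on genes.

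The mammalian pineal gland receives its main innervation from sympathetic neurons of the superior cervical ganglia. At night the circadian clock of the suprachiasmatic nucleus drives these neurons through the spinal cord, they release norepinephrine onto pinealocytes, and adrenergic receptors there raise cyclic AMP, which induces transcription of the enzyme that sets the rhythm of melatonin synthesis and of many other genes. In this setting a night gland of an SCGX rat is a gland without that nerve supply since early postnatal life, and a night gland of a Sham rat is one with it.

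The deposited tables list genes by Ensembl identifier, and no table used here pairs these identifiers with gene names, so genes are described in groups and 4 identifiers are given. Presence of pinealocyte or other cell type markers by name was therefore not analysed here. Instead, genes were marked as pineal-enriched or mixed-tissue-enriched where 1 mixed tissue reference library differed more than 8-fold from 2 pineal reference libraries. These had no replicates, and 1 of the pineal libraries was taken at ZT7 and 1 at ZT19. Pineal-enriched genes took between 7.25% and 7.54% of the read-pairs in the SCGX night libraries and between 8.08% and 9.24% in the Sham night libraries. These shares pool genes with and without a night/day rhythm, which are given apart below. In bulk tissue, fewer cells of a type and less RNA per cell cannot be told apart.

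Sham night replicate 3 stood apart from the other 5 libraries. In it, 962 of the 15877 genes tested (6.06%) had a normalized count more than 2-fold above that of each other library, against 49 and 31 genes in Sham night replicates 1 and 2 and between 6 and 18 in the SCGX night libraries. Of these 962 genes, 638 (66.3%) were mixed-tissue-enriched and 1 was pineal-enriched. Mixed-tissue-enriched genes took 1.42% of the read-pairs in this library and between 0.286% and 0.376% in the other 5. Replicates had a common coefficient of variation of 10.2% in SCGX night and of 34.8% in Sham night, which became 17.4% with replicate 3 left out. The main counts below are therefore given with all 6 libraries and without Sham night replicate 3.

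**Figure D1:**
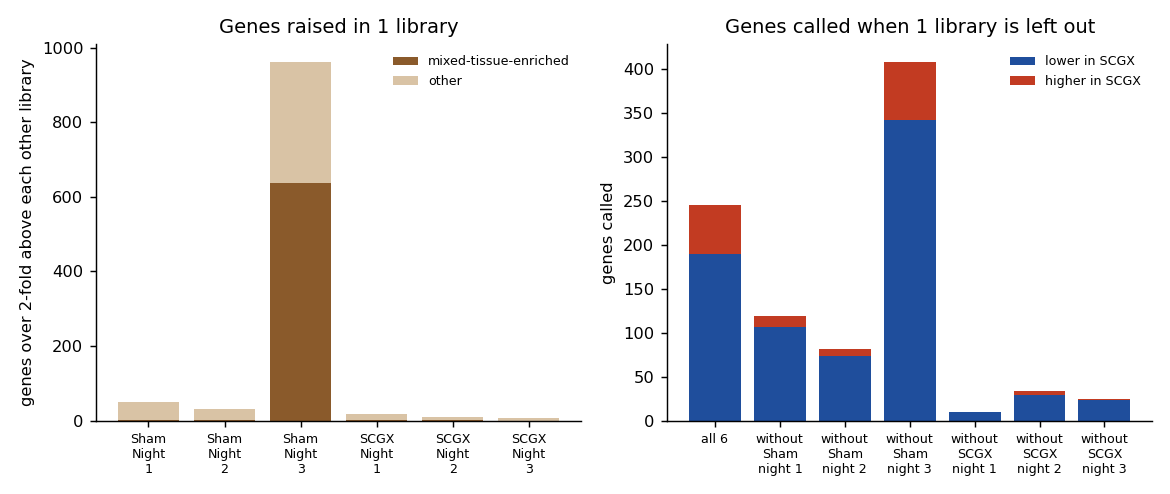
Left, bars count the genes whose normalized read-pair count in 1 library was more than 2-fold that in each of the other 5, with the mixed-tissue-enriched genes in the darker part. Right, stacked bars count the genes called lower or higher in SCGX night than in Sham night with all 6 libraries and with each library left out. Sham night replicate 3 had 962 raised genes, and leaving it out moved the number of called genes from 245 to 408, while leaving out any other library lowered it to between 10 and 119.

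More of the genes called between SCGX night and Sham night were lower than higher in SCGX, while the median log2 fold change of all genes tested was 0.03. With all 6 libraries, 245 of 15877 genes tested (1.54%) were called, that is, had an adjusted p-value under 0.001 and a fold change (FC) greater than 2 by the quasi-likelihood test of edgeR with Benjamini-Hochberg adjustment. Of these, 189 (1.19% of the genes tested) were lower and 56 (0.353%) were higher in SCGX. A fall of more than 4-fold was found for 86 of the lower genes, of more than 8-fold for 35 and of more than 32-fold for 7. Among the higher genes, 16 rose more than 4-fold and 1 more than 8-fold. An adjusted p-value under 0.05 was reached by 3300 genes at any fold change. The 3 SCGX libraries lay outside the range of the 3 Sham libraries for every called gene, as they did for 18.5% of all genes tested with SCGX below and for 20.0% with SCGX above.

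**Figure D2:**
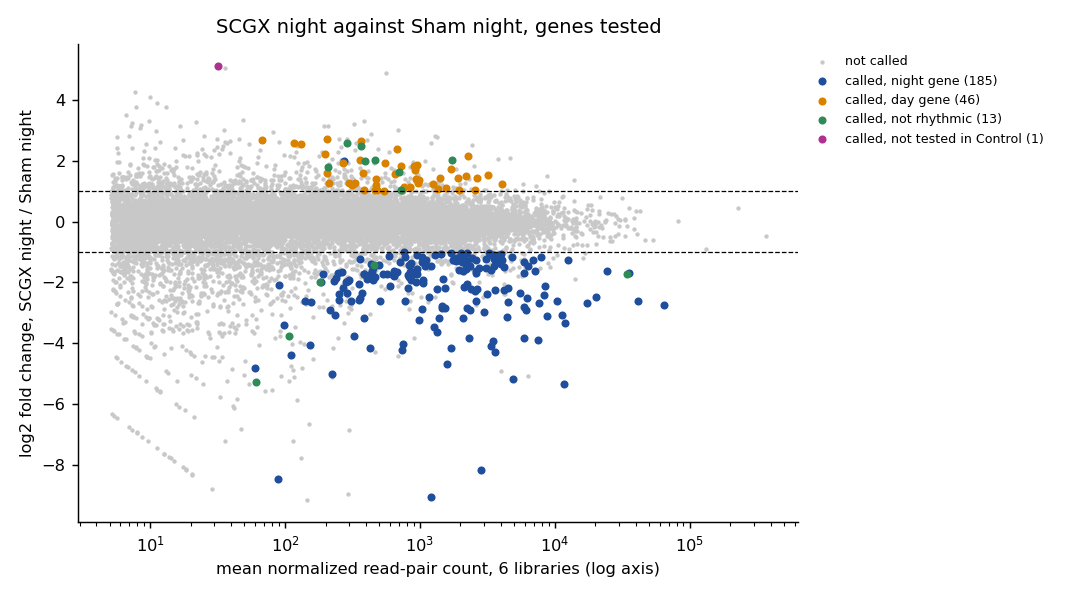
Each point is a gene tested, with the mean normalized read-pair count of the 6 libraries on a log axis and the log2 fold change of SCGX night over Sham night on the vertical axis. Dashed lines mark 2-fold changes, and coloured points are the 245 called genes by their night/day class in the Control libraries. The 184 called night genes below the lower line form the largest group, and 46 day genes lie above the upper line.

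Without Sham night replicate 3, 408 of 15602 genes (2.62%) were called, with 342 (2.19%) lower and 66 (0.423%) higher. Falls of more than 4-fold, 8-fold and 32-fold were then found for 128, 56 and 12 of the lower genes. All 189 genes called lower with 6 libraries were called lower again, as were 39 of the 56 called higher. The 17 genes that were called only with replicate 3 were all higher in SCGX and had log2 fold changes of at least 0.88 and adjusted p-values of at most 0.00121 without it. A further 180 genes were called only without replicate 3, with 153 lower and 27 higher, and their median adjusted p-value with all 6 libraries was 0.00218. The common coefficient of variation of the comparison was 24.1% with replicate 3 and 12.8% without it. None of the 962 genes raised in replicate 3 was among the 245 called genes, and 1 of the 721 of them still tested was called without it. As a group the 962 genes had a median log2 fold change of -1.18 with replicate 3, and the 721 still tested had 0.14 without it. These genes were chosen for a high value in 1 Sham library, which widens the spread within Sham night and raises its mean. The absence of calls and the median of -1.18 with replicate 3 are therefore not independent of that choice. The number of genes more than 2-fold lower in SCGX, called or not, was 1341 with the library. It was 900 without it, where fewer genes were tested. Leaving out any other library lowered the number of calls. Without Sham night replicate 1 or 2 it was 119 and 81 genes, and without SCGX night replicate 1, 2 or 3 it was 10, 34 and 25. Such fits also have less power at this threshold, and the part of single libraries was not told apart from that. DESeq2's Wald test called 776 genes, with 529 lower and 247 higher.

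Among the called genes, the one that fell most was ENSRNOG00000011598, whose counted model spans 1990 bases. Its normalized read-pair counts were 3087, 1929 and 2265 in the 3 Sham night libraries and 4.50, 5.64 and 2.17 in the 3 SCGX night libraries. All 3 Sham libraries lay far above all 3 SCGX libraries, which held 12 read-pairs in total. On the log2 scale it was lower by a fold change of -9.09 (standard error 0.31, adjusted p = 2.48e-05, edgeR) with all libraries and of -9.19 (adjusted p = 1.38e-05) without Sham night replicate 3. The ratio of the summed read-pairs of the groups was 575 with Sham night over SCGX night (exact 95% interval 329 to 1112, which covers counting error only). In the unoperated rats this gene had 1535 ± 176 normalized counts (SD, n = 3) at night and 11.9 ± 5.34 by day. Sham day glands had 14.3 ± 4.29, DCN night glands 1.97 ± 0.08 and SCGX day glands 23.2 ± 19.8. The DCN night counts lie at the lower limit of counting, where so small an SD does not show a precise level. The level in SCGX night was thus not above that of intact glands by day. In culture it rose with NE (log2 fold change 6.71) and with DBcAMP (6.48).

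ENSRNOG00000017455, with a model of 2276 bases, was the second of the called genes that fell. Its normalized counts were 262, 100.3 and 168 in Sham night. In SCGX night they were 0, 0.94 and 0, which is 1 read-pair in all 3 libraries together against 510 in Sham night. The ratio of summed read-pairs was 495 with an exact 95% interval of 88.5 to 19600, so the size of the fall is poorly bounded from above. The fitted log2 fold change of -8.49 (standard error 0.73, adjusted p = 0.000681) depends on how the fit treats a count of 0. Control night glands had 115 ± 13.5 and Control day glands 1.97 ± 1.71 (SD, n = 3). It rose in culture with NE (log2 fold change 3.30) and DBcAMP (2.5).

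ENSRNOG00000017922, with a model of 1110 bases, rose most among the called genes. Its normalized counts were 57.4, 55.5 and 72.8 in SCGX night and 1.07, 1.82 and 2.16 in Sham night, the latter from 5 read-pairs in all. The difference was 5.14 on the log2 scale (standard error 0.38, adjusted p = 0.000394, edgeR), and the ratio of summed read-pairs was 36.4 (exact 95% interval 15.3 to 114). The other groups of both operations were well above the intact groups, with 47.0 ± 16.9 normalized counts in DCN night, 35.4 ± 17.2 in DCN day and 34.1 ± 7.16 in SCGX day (SD, n = 3). Intact glands had low counts at both times, between 0 and 11.3 in every Control and Sham library, and too few for a night/day test in Control. This gene was higher in SCGX glands by day also (log2 fold change 4.58, adjusted p = 0.000488, edgeR), and its night and day differences from Sham were not found to differ (interaction 0.52, standard error 0.95, adjusted p = 0.794).

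ENSRNOG00000034140, with a model of 2256 bases, followed among the genes that rose. Its normalized counts were 350, 352 and 352 in SCGX night and 63.2, 68.4 and 33.4 in Sham night, so that the lowest Sham value was in replicate 3. The difference was 2.73 on the log2 scale (standard error 0.24, adjusted p = 0.000783, edgeR) and 2.40 (adjusted p = 5.87e-05) without that replicate. It was a day gene in intact rats, with 533 ± 108 in Control day and 38.1 ± 18.5 in Control night, and with 278 ± 58.9 in Sham day (SD, n = 3). SCGX night glands thus lay within the range of the intact glands by day. NE and DBcAMP lowered this gene in culture, by log2 values of -2.38 and -1.51.

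**Figure D3:**
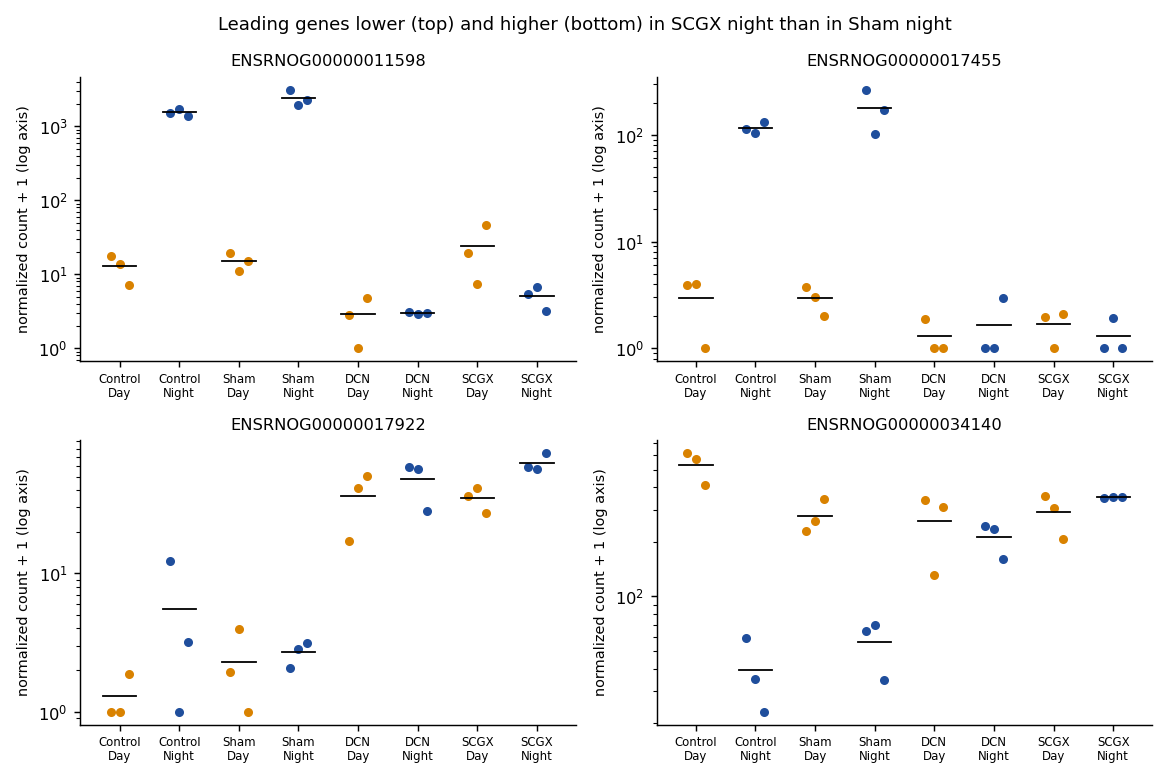
Normalized read-pair counts plus 1, on a log axis, of the 2 called genes that fell most and the 2 that rose most in SCGX night, in each of the 24 in vivo libraries (points; line, mean of 3; blue, night; orange, day). ENSRNOG00000011598 and ENSRNOG00000017455 are high in Control night and Sham night alone, ENSRNOG00000017922 is high in all 4 DCN and SCGX groups, and ENSRNOG00000034140 is low in Control night and Sham night alone.

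The comparison addressed whether the genes that differ after ganglionectomy are those with a night/day rhythm in the intact gland. Rhythm was taken from the Control libraries, which have no part in SCGX night against Sham night, at an adjusted p-value under 0.05 between night and day, which 35.3% of the 15619 genes tested there reached. Genes that missed this threshold are called not rhythmic or without a rhythm, which does not show that they had none. Of the 189 lower genes, 184 were night genes, 5 were not rhythmic and 0 were day genes. Of the 56 higher genes, 46 were day genes, 8 were not rhythmic, 1 was a night gene and 1 was not tested in Control. Among all 15877 genes tested, 34.4% were rhythmic, while 94.3% of the 245 called genes were. Calls thus took 6.5% of the 2831 night genes in the lower direction and 1.75% of the 2629 day genes in the higher one, but 0.0504% and 0.0806% of the 9926 genes without a rhythm. Without Sham night replicate 3, 336 of 342 lower genes were night genes and 51 of 66 higher genes were day genes, and 95.3% of the called genes were rhythmic.

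The shift in rhythmic genes was not limited to called genes. Of all night genes tested, 2444 had a negative and 387 a positive log2 fold change, with a median of -0.36. Day genes had the opposite balance, with 432 negative and 2195 positive and a median of 0.39. Genes without a rhythm had a median of 0.06. The size tended to follow the size of the rhythm in Control, though not in even steps. Night genes with a Control log2 fold change between 1 and 2 had a median of -0.96 in SCGX against Sham. Those between 2 and 3 had -1.76 and the 106 between 3 and 4 had -1.78, nearly the same. The 41 above 4 had -3.82. Called shares over these classes were 14.4%, 27.3%, 29.2% and 36.6%. On the other side, day genes between -2 and -1 in Control had a median of 0.58, with 4.0% called. Those between -3 and -2 had 0.725 with 4.17% called, and the 35 below -3 had 1.66 with 5.71% called. Without Sham night replicate 3 the night classes named here had medians of -1.07, -1.93, -1.95 and -4.03. The day classes then had 0.67, 1.12 and 2.08.

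**Figure D4:**
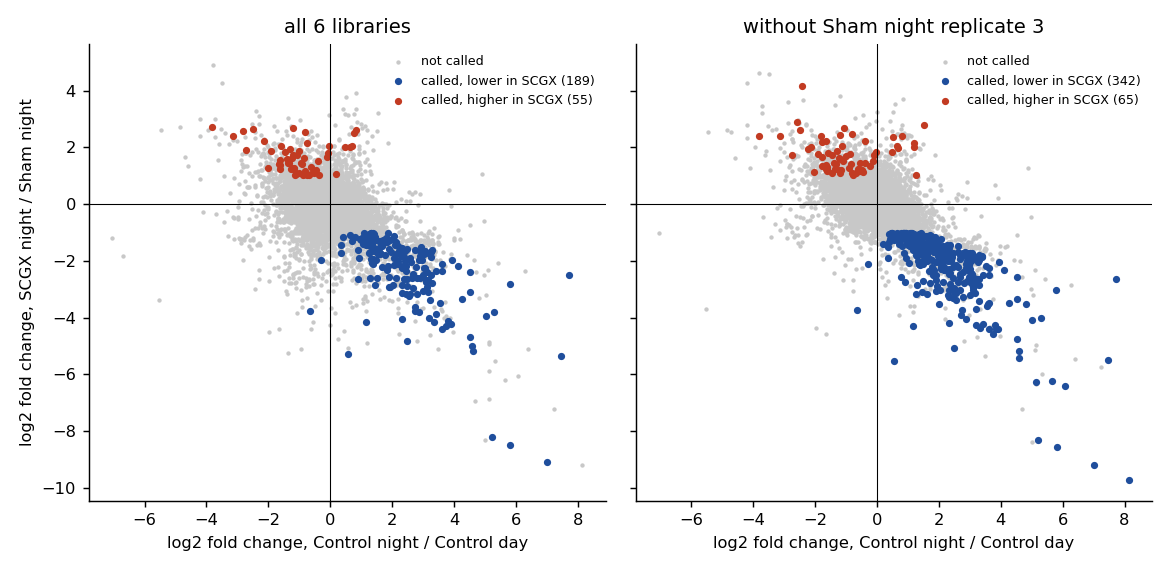
Log2 fold change of SCGX night over Sham night (vertical) against that of Control night over Control day (horizontal) for each gene tested in both, with all 6 libraries (left) and without Sham night replicate 3 (right). Called genes lie mainly in the lower right (night genes, lower in SCGX) and upper left (day genes, higher in SCGX). Leaving out the library removes much of the cloud of uncalled points below 0.

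The genes with a strong rhythm in Control (adjusted p under 0.001 and FC greater than 4, 2.38% of the genes tested there) were followed library by library. Of 296 strong night genes, 295 were tested between SCGX and Sham at night, and 294 of these had a negative log2 fold change, with a median of -1.86. Called lower were 105 (35.6%) with all libraries and 162 (55.1%) without Sham night replicate 3, and 266 had an adjusted p-value under 0.05 with all libraries. Of 76 strong day genes, 74 were tested, 60 had a positive log2 fold change and 7 (9.46%) were called higher, with 8 without replicate 3. No strong night gene was called higher and no strong day gene was called lower.

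Each library was placed on the span from the Control day mean (0) to the Control night mean (1) of each strong gene, on a log2 scale. For the night genes the median positions were 1.02, 1.08 and 0.92 in the Sham night libraries and 0.27, 0.30 and 0.29 in the SCGX night libraries. All 3 SCGX libraries lay below all 3 Sham libraries at night, and the 3 SCGX pools differed from each other by less than the Sham pools did. Sham day lay at 0.06 ± 0.01 (SD of library medians, n = 3), DCN night at 0.25 ± 0.04 and SCGX day at 0.35 ± 0.04. The SCGX night medians were above the Sham day medians, which were at most 0.07, in every library, but an exact permutation test of 3 against 3 libraries cannot give a p-value below 0.1. Individual genes varied: in the mean of the SCGX night libraries, 63 of 296 lay below the Control day level and 55 lay above 0.5. For the day genes the medians were 1.06, 0.89 and 0.75 in Sham night and 0.37, 0.38 and 0.33 in SCGX night, with the lowest Sham value in replicate 3.

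**Figure D5:**
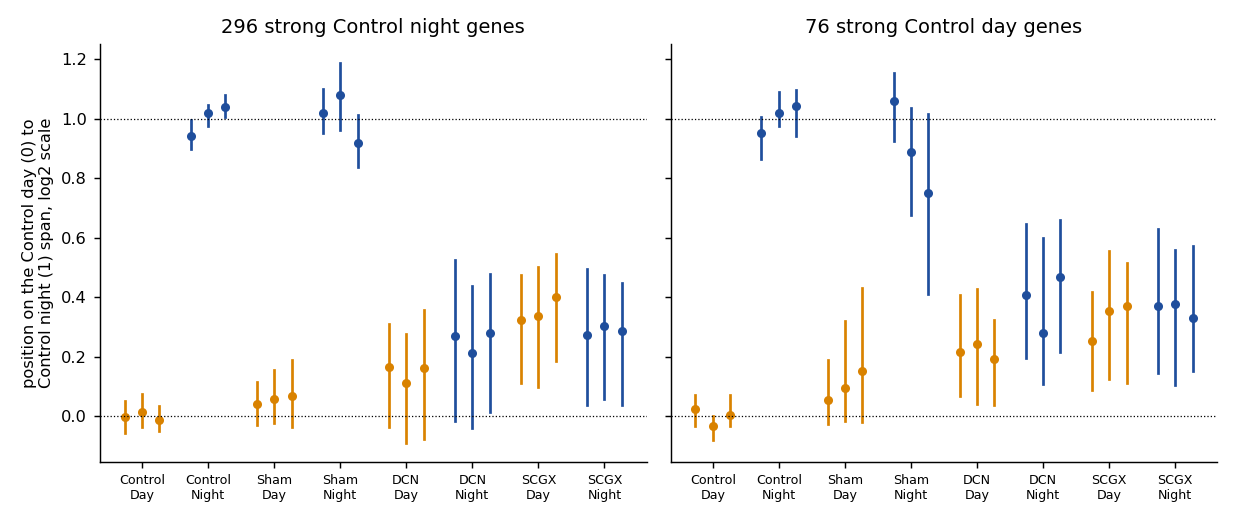
Median (point) and quartiles (line) over the strong Control night genes (left) and day genes (right) of each library's position between the Control day mean (0) and the Control night mean (1). Night libraries are blue and day libraries orange. Sham night libraries lie at 0.75 to 1.08 and SCGX night libraries at 0.27 to 0.38.

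SCGX night glands were also set against Sham day glands, a comparison added after the data had been seen. It called 49 of 15718 genes (0.312%), with 29 (0.185%) lower and 20 (0.127%) higher in SCGX night. Of the 20 higher genes, 18 were night genes in Control, and of the 29 lower genes 21 were day genes. Of the strong night genes, 121 of 275 tested had higher levels in SCGX night than in Sham day at an adjusted p-value under 0.05, 12 had lower levels, and 11 were called higher. This count fell with any 1 library left out, to between 1 and 38 genes. It was 1 gene without any one of the SCGX night replicates, 2 without Sham day replicate 2 and 3 without Sham day replicate 3. A fit with fewer libraries also has less power at this threshold, so the part of single libraries was not told apart.

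The levels of the called genes in all groups were read relative to the Control day mean, as the median over genes in each library. The 189 lower genes were at 2.32, 2.29 and 2.06 log2 units in the Sham night libraries and at 0.07, 0.16 and 0.07 in the SCGX night libraries. Libraries that had no part in the call showed the same genes at 2.17 ± 0.17 (SD, n = 3) in Control night, 0.02 ± 0.04 in Sham day, 0.02 ± 0.10 in DCN night, -0.10 ± 0.06 in DCN day and 0.28 ± 0.06 in SCGX day. The 56 higher genes were at -1.15, -1.20 and -1.29 in Sham night and at 0.13, 0.06 and 0.06 in SCGX night. In Control night they were at -1.07 ± 0.11 and in DCN night at 0.09 ± 0.06. Both sets were chosen for the distance of SCGX night from Sham night, so their SCGX night levels are not independent of the choice.

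The difference between SCGX and Sham at night was compared with that by day. By day, fitted over the 12 SCGX and Sham libraries, the 189 genes called lower at night had a median log2 fold change of 0.26 and the 56 called higher had 0.02. Of the 189, 5 were called lower by day as well, and 24 were called in the opposite direction, higher in SCGX day than in Sham day. Over all genes tested by day, 0.214% were called lower and 0.415% higher. The interaction itself was tested in the same 12 libraries and passed an adjusted p-value of 0.001 for 728 of 15892 genes (4.58%), with 529 (3.33%) negative and 199 (1.25%) positive. With library totals as the only scaling the split turned to 474 negative and 502 positive. With TMM the interaction passed for 169 of the 189 lower and 35 of the 56 higher genes, with the sign of the night difference in each. The interaction shares the night libraries with the call, so these counts are not independent of it.

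Called genes were also sorted by their response in organ culture, in libraries that took no part in the call. With NE, which the sympathetic nerves release, 133 of the 189 lower genes (70.4%) were raised (adjusted p under 0.001, FC greater than 2), while 2.68% of all genes tested between SCGX and Sham were. DBcAMP, an analog of cyclic AMP that enters cells, raised 135 (71.4%) of them, against 3.82% of those genes. Over all genes tested in culture, NE raised 2.84% and lowered 0.783%, and DBcAMP raised 4.28% and lowered 1.39%. Both treatments raised 126 of the 189 lower genes, and 47 were raised by neither. None was lowered by either treatment at this threshold. Read from the culture side, 31.2% of the 426 genes raised by NE were called lower in SCGX night, with a median log2 fold change of -1.48, and 11% of the 118 genes lowered by NE were called higher, with a median of 1.04. Of the 56 higher genes, 12 were lowered by both treatments and 42 by neither, and 1 was raised by DBcAMP. Without Sham night replicate 3, NE raised 210 and DBcAMP 209 of 342 lower genes (61.4% and 61.1%), and 49.6% of the NE-raised genes were called lower.

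Among the 295 strong Control night genes tested, the share called lower was read by culture class. It was 55.7% of the 158 genes raised by both treatments, 11.8% of the 34 raised by NE only, 9.09% of the 11 raised by DBcAMP only and 13.0% of the 92 raised by neither. Without replicate 3 the shares were 76.6%, 44.1%, 36.4% and 23.9%. For the genes raised by both and by neither, the medians of the log2 fold change were closer than these shares, at -2.09 and -1.82, and these classes had median Control night/day log2 fold changes of 3.02 and 2.74. Median positions of the SCGX night libraries on the Control span were 0.24 to 0.28 for genes raised by both, 0.40 to 0.49 for NE only, 0.29 to 0.45 for DBcAMP only and 0.26 to 0.30 for genes raised by neither.

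Pineal-enriched genes were represented among the lower genes more than in the table as a whole. They made up 42 of the 189 lower genes (22.2%) and 1.88% of all genes tested, and 64 of the 342 lower genes (18.7%) without Sham night replicate 3. The class drew on 1 reference pineal library taken at night and 1 by day, so it need not be independent of the night level. Of the 299 pineal-enriched genes tested, 140 were night genes, against 17.8% of all genes tested. Sorted by rhythm, 41 of the 140 pineal-enriched night genes were called lower (63 without Sham night replicate 3), with a median log2 fold change of -1.47. Of the 61 pineal-enriched day genes, 3 were called higher, and the median was 0.86. Of the 98 pineal-enriched genes without a rhythm in Control, 1 was called, and the median was 0.22. Of these 98 genes, 85 (86.7%) lay within 2-fold of Sham, against 92.4% of all genes without a rhythm. Of the 1081 mixed-tissue-enriched genes, 1 was called lower, and their median log2 fold change was -0.93 with Sham night replicate 3. Without that replicate, 859 mixed-tissue-enriched genes were tested, and the median was 0.19. The part of other cell types in these differences was not tested.

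Lower genes were abundant in Sham night glands. Their median level in Sham night was 1208 normalized read-pairs per kilobase of gene model, against 150 over all genes tested, and it was 249 in SCGX night. The higher genes had median levels of 129 in Sham night and 345 in SCGX night. Both sets were called on these same libraries, so these levels are not independent of the call. Calls rose with abundance, from 0.0252% of the 3970 genes with the lowest mean counts to 3.4% of the 3969 with the highest, and the median gene model was 2375 bases for lower, 2640 for higher and 1895 for all genes tested.

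For 13 called genes the night/day difference in Control did not reach an adjusted p-value of 0.05, with log2 values between -0.65 and 0.82, and 11 of them were also called without Sham night replicate 3. The 5 lower ones were described after their values had been seen. The most abundant was a pineal-enriched gene with a model of 3429 bases, with 59110, 55260 and 44670 normalized counts in Sham night and 14300, 15340 and 16810 in SCGX night. It was lower by a log2 fold change of -1.72 (standard error 0.12, adjusted p = 0.000318, edgeR) at night and of -1.31 (adjusted p = 0.000119) by day. Control glands had 50770 ± 6846 at night and 39130 ± 4718 by day, and DCN night glands 13050 ± 2770 (SD, n = 3), so the level was low after both operations and high in both intact groups. The largest fall was that of a gene with a model of 2006 bases, from 161, 108 and 90.5 in Sham night to 2.25, 1.88 and 4.35 in SCGX night, with 62.8 ± 12.8 in Sham day and 6.59 ± 3.35 in SCGX day. A gene with a model of 1577 bases fell from 186, 196 and 220 to 11.3, 14.1 and 17.4. It was the only mixed-tissue-enriched gene called with all 6 libraries, and its Sham day counts were uneven, at 324, 73.8 and 98.9. A gene of 1293 bases fell from 317, 291 and 262 to 58.5, 80.8 and 72.8. For these 4 genes the interaction with time did not pass the threshold (adjusted p between 0.0314 and 0.480). The fifth, of 1589 bases, was lower at night (log2 fold change -1.43), while its value by day was 0.97. Its interaction passed (adjusted p = 0.000150). Against Control night, which had 366 ± 54.8 normalized counts against 675 ± 26.7 in Sham night (SD, n = 3), its log2 fold change was -0.58 and it was not called (adjusted p = 0.0156, edgeR), while the other 4 were called lower there, with values between -4.94 and -1.69.

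Of the 8 higher genes without a rhythm, 5 varied widely between replicates of the intact groups. Each of these 5 had more than 2-fold the count of the other replicates of its group in both Control night replicate 1 and Sham day replicate 1, as did 0.548% of all genes tested. One of them, with a model of 3061 bases, had 3208, 2278 and 2823 normalized counts in SCGX night and 669, 857 and 567 in Sham night. In Control night it had 2886, 474 and 748, in Sham day 2184, 878 and 1051, and in DCN night 1077, 2979 and 3202. Against Sham night the 5 genes had log2 fold changes between 2.01 and 2.61. Against Control night they had values between 0.63 and 1.03, and none was called (smallest adjusted p = 0.200). The part of the uneven libraries in this result was not tested. The other 3 had levels in Control night close to those of Sham night, such as 97.2 ± 5.73 and 96.6 ± 11.3 for a gene with a model of 1173 bases, against 323 ± 38.0 in SCGX night (SD, n = 3).

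The single night gene that was higher in SCGX had a model of 3672 bases and normalized counts of 483, 468 and 345 in SCGX night and 118, 122 and 95.9 in Sham night. Its rhythm in Control was small, with 136 at night and 96.2 by day (log2 fold change 0.49, adjusted p = 0.0358, edgeR). By day it was at 366 ± 42.5 in SCGX and 111 ± 26.8 in Sham, and DCN night glands had 426 ± 45.6 (SD, n = 3). Its log2 fold changes against Sham were 2.00 at night (adjusted p = 0.000634) and 1.73 by day (adjusted p = 0.000390).

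SCGX night was compared with 2 other night groups, and all these comparisons share the SCGX night libraries. Against Control night, which does not hold the Sham libraries, 595 of 15534 genes (3.83%) were called, with 439 (2.83%) lower and 156 (1.00%) higher. With library totals as the only scaling this split was 334 lower and 256 higher. The common coefficient of variation was 13.3%, against 24.1% with Sham. The 189 genes lower than in Sham night had median log2 fold changes of -1.91 against Sham night and -1.88 against Control night, and the 56 higher genes had 1.56 and 1.14.

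Against DCN night, in which the ganglia remain but lack their central input, 0 of 15575 genes (0.00%) were called by edgeR's quasi-likelihood test. No gene had an adjusted p-value under 0.05, the smallest adjusted p-value was 0.659, and 592 genes had an unadjusted p-value under 0.05. DESeq2's Wald test called 3 genes. The log2 fold changes of the middle 95% of genes lay between -0.57 and 0.60, with a median standard error of 0.14, and 98.9% of genes lay within 2-fold. The genes lower than in Sham night had a median of 0.09 against DCN night, with quartiles of -0.01 and 0.25. Of the 185 of them tested against DCN, 27 had an unadjusted p-value under 0.05, 25 with SCGX above DCN, while 3.8% of all genes tested had such a p-value. The higher genes had 0.00, with quartiles of -0.07 and 0.10. A count of 0 at this replicate number does not show that the operations gave equal levels.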

How the data were processed

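Total RNA of rat pineal glands was sequenced by the authors as stranded, ribo-depleted libraries. Per the labels and the study's methods, read-pairs were aligned with STAR 2.3.1y to the rn4 assembly and counted per Ensembl gene by the rule of HTSeq, and the deposited counts are whole read-pairs without normalization. The deposited RPKM values are those counts divided by gene length and library total and served only to recover gene lengths. Read-pairs on more than 1 gene were left out by the counting rule, so near-identical copies of a gene can be undercounted.

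The count models were those of edgeR 4.0.16 under R 4.3.3 (TMM, quasi-likelihood test, Benjamini-Hochberg adjustment over all genes tested). Genes with a mean normalized count under 5 were not tested, and a called gene had an adjusted p-value under 0.001 and a fold change over 2 (for the interaction, the adjusted p-value alone). Standard errors are the log2 fold change divided by the root of the F statistic. Normalized counts per library were scaled over the 24 in vivo libraries, and positions on the Control span used log2 CPM with a prior count of 2. Pineal- or mixed-tissue-enriched genes needed a normalized count over 30 and a ratio over 8. The fits were also run on simulated counts with the same spread for all genes and no library set apart. That run does not cover a case such as Sham night replicate 3. Intervals cover counting error only.

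Alternatives were DESeq2 1.42.0, another quasi-likelihood estimate, median-of-ratios and library-total scaling, other count filters, 1 model of all 24 libraries, a block for the replicate number, adjustment by Benjamini-Yekutieli and fits that leave out each library. The members and lists were chosen with earlier results of these data known. Identifiers printed are the first 2 of each direction by log2 fold change among genes called with and without Sham night replicate 3; lists of named genes, cell type markers and promoters were not analysed here. Library totals of the 6 libraries were between 12985072 and 18504240 read-pairs. Python 3.11.15 was used for description and drawing.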

Additional observations from a re-analysis of the deposited data

Results flagged for a closer look

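Effects that differed between night and day by the interaction test were found for 728 of 15892 genes at an adjusted p-value under 0.001 (edgeR, SCGX and Sham libraries at both times). Among the 4 identifiers given, ENSRNOG00000011598 had an interaction of -9.81 on the log2 scale (standard error 0.81, adjusted p = 9.11e-06), with a difference from Sham of -9.09 at night and 0.67 by day. ENSRNOG00000034140 had an interaction of 2.60 (standard error 0.36, adjusted p = 0.000364), with 2.73 at night and 0.07 by day. Single outlying samples were not tested here, since the criterion used is for groups of at least 4.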

How the results depend on the processing

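No log2 fold change of the 4 identifiers changed sign under any alternative run, and counts of calls moved. For SCGX night against Sham night, 245 genes became 776 with DESeq2 and 732 with all 24 in vivo libraries in 1 model. They became 33 with Benjamini-Yekutieli adjustment, and were between 10 and 408 with 1 library left out. Genes higher in SCGX numbered 247 with DESeq2, 218 in the 24-library model and 2 with Benjamini-Yekutieli adjustment. With 1 library left out they numbered between 0 and 66. The other alternatives, apart from the block given below, gave between 236 and 354, and a minimum of 10 read-pairs per library left 3 of the 4 identifiers untested. ENSRNOG00000011598 lost its call without SCGX night replicate 1 alone (adjusted p = 0.00101), and the other 3 identifiers lost theirs in at least 7 of their alternatives each, with adjusted p-values up to 0.00945. The rhythmic share of 94.3% was 86.5% with rhythm at an adjusted p-value under 0.001 and between 95.3% and 100% with 1 library left out. SCGX night against Control night gave 329 genes with Benjamini-Yekutieli adjustment and between 361 and 669 with 1 library left out, and against DCN night DESeq2 gave 3 genes. The interaction gave 1629 with DESeq2, 1232 with 24 libraries, 306 with Benjamini-Yekutieli adjustment and between 410 and 1017 with 1 library left out. Against Sham day, 49 genes became 260 with DESeq2, 104 without a count filter, 138 with 24 libraries, 1 with Benjamini-Yekutieli adjustment and between 1 and 38 with 1 library left out. Genes raised in Sham night replicate 3 numbered 410 at 4-fold. The cause of these changes was not tested.

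Scaling by library totals alone moved the median log2 fold change of all genes from 0.03 to 0.13 against Sham night and turned the interaction's split of 529 negative and 199 positive genes into 474 and 502, so directions there are relative to TMM scaling. Same-numbered SCGX and Sham night libraries did not deviate together (correlations of -0.023, -0.030 and -0.002). This cannot exclude a pairing of the pools, since the deviations are from the mean of few libraries in each group. With the replicate number as a block, the calls were 24 against Sham night, 451 for the interaction and 1 against Sham day. All 24 were lower in SCGX night. Depth limits genes near 0, such as ENSRNOG00000017455 with 1 read-pair in SCGX night.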
